A study of Mus musculus with 24 samples.

Results

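The nuclear-encoded subunits of the mitochondrial respiratory chain were followed across 6 groups of mouse macrophages. Members were chosen by gene name, as every non-control spot whose name begins with Nduf and a subunit letter and number, Uqcr, Cox with a number from 4 to 8, or Atp5. This gave 81 of the 34836 gene names on the array, read by 118 probes: 35 genes of complex I, 8 of complex III, 20 of complex IV and 18 of complex V. The pattern also caught names that are not subunits, among them Atp5sl and Atp5s, the pseudogene Atp5c1-ps and Cox7a2l, a factor that joins complexes III and IV. Complex II carries none of these names and was followed through a separate list of 4 genes.

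All mice were C57BL/6 males aged 10 weeks, and every group had 4 arrays. Tumour-associated macrophages (TAM) were taken from tumours of naive mice and of mice 14 days after sepsis induction, on a Percoll gradient with 1 hour of adhesion, so that other tumour cells could remain. M0 macrophages were grown from adherent marrow progenitors of naive mice or of mice 14 days after sepsis induction. They were cultured for 7 days in RPMI with 20% L929 supernatant and 10% serum. M1 and M2 cultures came from naive mice and were grown the same way, with additions on day 3: for M1, 50 ng/mL interferon-gamma together with 10 ng/mL lipopolysaccharide, and for M2, 20 ng/mL IL-10. Per the series' design text, the 4 arrays of a group were the best samples of several experiments, and the experiment of each is not given. All p-values thus rest on the spread among selected samples, which may be technical in part.

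The respiratory chain lies in the inner mitochondrial membrane. Complex I takes electrons from NADH and complex II from succinate, complex III passes them to cytochrome c, and complex IV passes them to oxygen. The proton gradient built by complexes I, III and IV drives complex V, the ATP synthase. Most subunits are encoded in the nucleus and a few in mitochondrial DNA, and the 2 sets assemble together. Macrophages given interferon-gamma and lipopolysaccharide are known to shift from respiration to glycolysis.

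The values are log2 intensities relative to the 75th percentile of the array, so a level of 0 equals that percentile. Each gene was read by its brightest probe, and levels of different probes are not compared. The 23 arrays used had 56.9% to 69.7% of spots well above background. TAM naive replicate 2 was left out, as in the labels, and had 42.4%. The arrays were spread over 3 slides, and pairs of arrays within a group correlated at 0.906 to 0.992. In the authors' deposited value table, 22 of 24 columns matched another sample's scanner file best, 19 of them a file of another group, so that table was not used and the groups rest on the scanner files. Summed levels of 9 macrophage markers, all above background in every group, were 64.6 to 213 in post-sepsis TAM and 212 to 392 in naive TAM, against 587 to 1620 in the cultures. In TAM a single probe, that of Itgam, an integrin that neutrophils also carry, made up 35.1% to 94.6% of the sum. Csf1r, the receptor for the macrophage growth factor, had levels of 1.65 to 3.76 in TAM and 7.38 to 9.30 in the cultures, and 8 of the 9 markers were lower in naive TAM than in naive M0, with a median of -5.78. The sum of 7 melanocyte and melanoma markers was 1840 to 2450 in TAM and 7.61 to 26.6 in the cultures, where Tyrp1 and Dct were above background on no array. The part of tumour cells in the TAM results was not tested, and fewer cells of a type cannot be told apart there from less RNA per cell.

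Signal above background on 3 or more arrays of some group was found for 78 of the 81 genes, and only these were tested. The other 3 were Cox7b2, Cox8b and Cox8c, forms of complex IV subunits known from testis, heart and muscle.

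Upstream sequence was available for 66 of the 81 genes, all of which matched a RefSeq entry (GRCm38.p6), as windows of 300 bases holding 250 before and 50 after the start. The 10-letter consensus of nuclear respiratory factor 1 (NRF1), a known activator of respiratory genes, spelled in capitals in the first 4 lines that follow, was searched on both strands. It stood in 5 of 66 windows (7.6%) against 1.5% of all protein-coding genes. These 5 runs are shown because their genes did not move alike in the cultures, as given further below. Capitals mark the run, or, for Cox6a1 and Ndufb4, each match on either strand with its A left free to be any base, which includes the exact run. All are written 5′ to 3′ along the gene.
Atp5g2 (chr15:102671070-102671099, minus strand): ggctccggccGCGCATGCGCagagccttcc
Atp5k (chr5:108434430-108434459, minus strand): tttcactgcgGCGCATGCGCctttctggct
Ndufa11 (chr17:56717692-56717721, plus strand): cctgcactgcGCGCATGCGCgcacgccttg
Uqcrc1 (chr9:108936668-108936697, plus strand, after the start): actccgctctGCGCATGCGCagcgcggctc
Cox6a1 (chr5:115349056-115349130, minus strand): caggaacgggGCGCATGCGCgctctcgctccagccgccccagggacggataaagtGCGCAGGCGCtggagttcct
Ndufb4 (chr16:37654369-37654568, minus strand), the window with most matches: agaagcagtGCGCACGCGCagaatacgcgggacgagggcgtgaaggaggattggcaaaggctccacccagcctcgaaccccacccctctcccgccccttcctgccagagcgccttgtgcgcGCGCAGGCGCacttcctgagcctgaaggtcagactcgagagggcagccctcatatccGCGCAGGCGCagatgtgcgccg

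With 1 free base the run stood in 15 of 66 windows (22.7%), against 7.2% of all protein-coding genes. The letters AAGATGGCG, bound by YY1, stood in 8 (12.1%) against 2.1%, and CCGGAAG, bound by GABP, in 14 (21.2%) against 12.9%. TATAAA stood in 7 (10.6%) against 14.8%. These are matches of letters in a window and not measured binding.

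Each gene was centred on its mean over the 23 arrays, and the median over the 78 genes was taken on each array. This median was 0.30 ± 0.18 (SD, n = 4) in post-sepsis TAM, 0.11 ± 0.25 in post-sepsis M0, 0.10 ± 0.08 in M2, -0.08 ± 0.30 (n = 3) in naive TAM, -0.16 ± 0.32 in naive M0 and -0.27 ± 0.11 in M1. M1 and M2 did not overlap, with M1 arrays at -0.38 to -0.16 and M2 arrays at 0.01 to 0.19. Naive M0 spread from -0.55 to 0.22 and overlapped every other group. Among neighbours in that order, no difference of means exceeded the larger of their SDs. In M1 the median was -0.20 for complex I, -0.39 for complex III, -0.19 for complex IV and -0.28 for complex V, and in M2 the same medians were 0.03, 0.09, 0.18 and 0.08. The 4 genes of complex II were at 0.08 in M1 and 0.10 in M2. Under quantile normalization the medians of complexes I, III, IV and V in M2 were -0.05, 0.00, 0.12 and -0.01. The order of the groups also depends on scaling: quantile normalization gave 0.32 in post-sepsis TAM, 0.14 in naive TAM, 0.00 in post-sepsis M0, -0.01 in M2, -0.21 in naive M0 and -0.26 in M1, so that naive TAM changed sign and moved up. Complex III stood highest of the 4 in post-sepsis TAM, at 0.47 ± 0.21. Complex V was at 0.36 ± 0.20 and complex I at 0.30 ± 0.20 there, and their arrays overlapped with those of complex III.

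**Figure D1:**
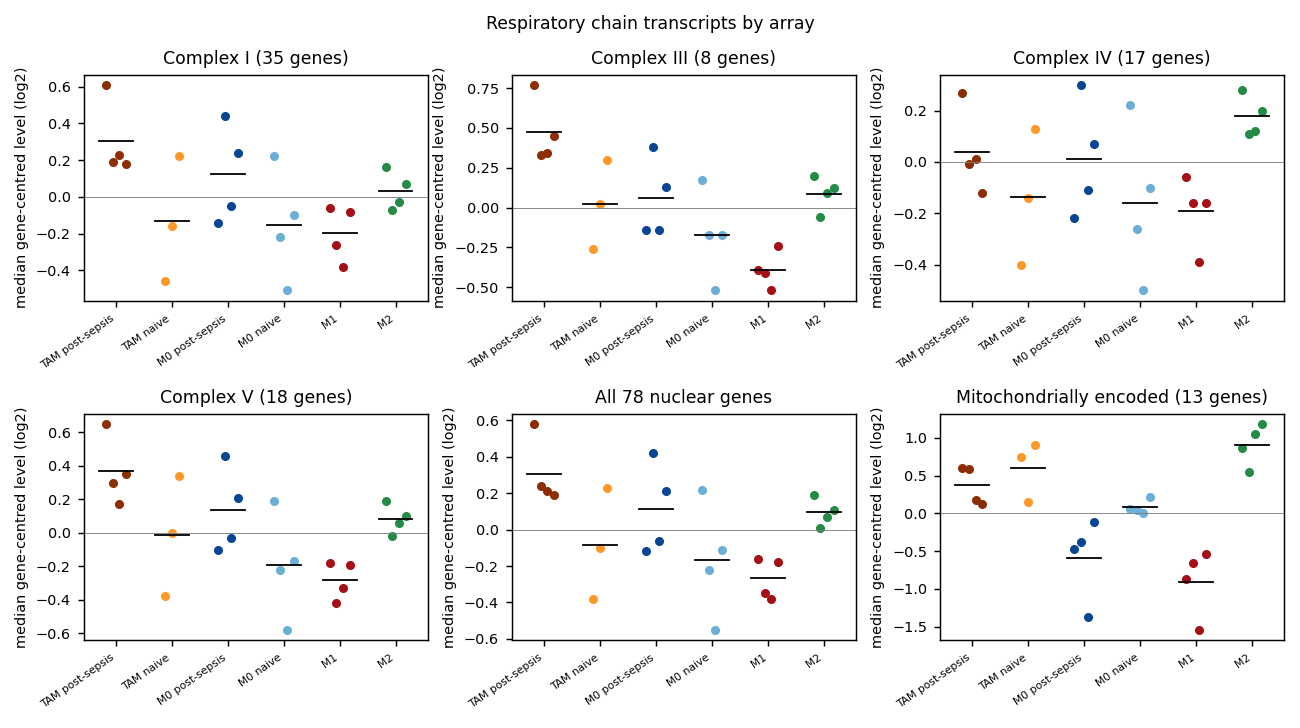
Median gene-centred level (log2) on each array, by complex, for all 78 nuclear genes and for the 13 mitochondrially encoded genes; points are arrays, bars are group means and TAM naive replicate 2 is left out. Over all 78 nuclear genes the medians of M1 lie between -0.38 and -0.16, below all M2 arrays. For complex I the groups overlap, with M1 replicate 1 at -0.06 and M2 replicate 2 at -0.07. The mitochondrially encoded medians are 0.54 to 1.18 in M2 and -1.54 to -0.54 in M1.

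M1 was compared with M2 to see how the polarizing agents differ in their effect on the chain. Of 77 members tested, 26 fell in M1 relative to M2 and 1 rose, where 16.4% of all genes tested fell and 17.4% rose (limma, adjusted p under 0.05). The median change was -0.32, against 0 over all genes. On 40 of 77 members all M1 arrays lay below all M2 arrays, where 19.2% of all genes did, and on 4 they lay above, where 22.4% did. Under quantile normalization 29 fell and 10 rose, with a median of -0.12. Within the 3 slides it was -0.37, -0.22 and -0.39.

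In complex I, 11 of 35 subunits fell. Ndufs8, an iron-sulfur subunit of the arm that faces the matrix, had levels of 1.16, 1.00, 1.37 and 1.24 on the M1 arrays and 3.22, 2.97, 2.87 and 2.80 on the M2 arrays. The groups were far apart, with a change of -1.77 ± 0.24 (SE; limma, adjusted p = 2.76e-05). Ndufb11, an accessory subunit of the membrane arm, had levels of 5.13 to 5.49 in M1 and 6.40 to 6.60 in M2, a change of -1.19 ± 0.21. Ndufs1, the largest iron-sulfur subunit, fell by 0.89 on the log2 scale, and Ndufv2, which sits at the NADH end, by 0.88. Other accessory subunits that fell were Ndufb7, Ndufa1, Ndufb6, Ndufb4, Ndufs5, Ndufb2 and Ndufv3, by 0.51 to 0.89. Dimmer probes of Ndufv3 gave 0.82 and -0.29, so its direction depends on the probe. The remaining 24 did not pass, among them Ndufs3 of the catalytic core and Ndufa3. The brightest probe of Ndufa3 gave -0.2 and its dimmer probe 2.54, so its change depends on the probe.

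In complex III, 4 of 8 subunits fell. Uqcrc1, a core protein, had M1 levels of 3.06, 2.69, 3.13 and 2.81 and M2 levels of 3.96, 4.00, 3.84 and 3.80. No M1 array reached an M2 array, and the change was -0.98 ± 0.24 (adjusted p = 0.00391 from limma). Uqcr11, Uqcrb and the Rieske iron-sulfur protein Uqcrfs1 fell by 0.85, 0.76 and 0.64.

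In complex IV, 4 of 16 fell. Cox6a2 and Cox7a1, the forms of their subunits typical of heart and skeletal muscle, changed most, by -1.84 ± 0.21 (adjusted p = 4.04e-06) and -1.44 ± 0.19 (adjusted p = 1.61e-05) in limma. Their widely expressed counterparts did not pass: Cox6a1 measured 0.33 and Cox7a2 0.30. Cox4i1, the common form of the regulatory subunit IV, had levels of 6.27 to 6.51 in M1 and 7.12 to 7.60 in M2 and fell by 0.94, and Cox5b fell by 0.73.

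In the ATP synthase, 7 of 18 fell and 1 rose. The membrane ring is built of subunit c, a single protein that 3 genes encode, and all 3 fell: Atp5g2 by 1.40, Atp5g3 by 1.33 and Atp5g1 by 0.69. Atp5g2 had levels of 6.31, 5.94, 5.86 and 6.19 in M1 and 7.61, 7.34, 7.47 and 7.49 in M2. Its second probe gave -1.34, whereas the second probe of Atp5g1 gave 0.07. Atp5o, in the stalk that holds the head, had M1 levels of 4.01 to 4.20 and M2 levels of 5.01 to 5.27 and changed by -1.06 ± 0.17. Atp5j and Atp5h of the same stalk and Atp5a1 of the catalytic head fell by 0.70 to 0.83. Atp5sl, not a subunit of the enzyme, rose by 1.03 ± 0.22 (adjusted p = 0.00184, limma).

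**Figure D2:**
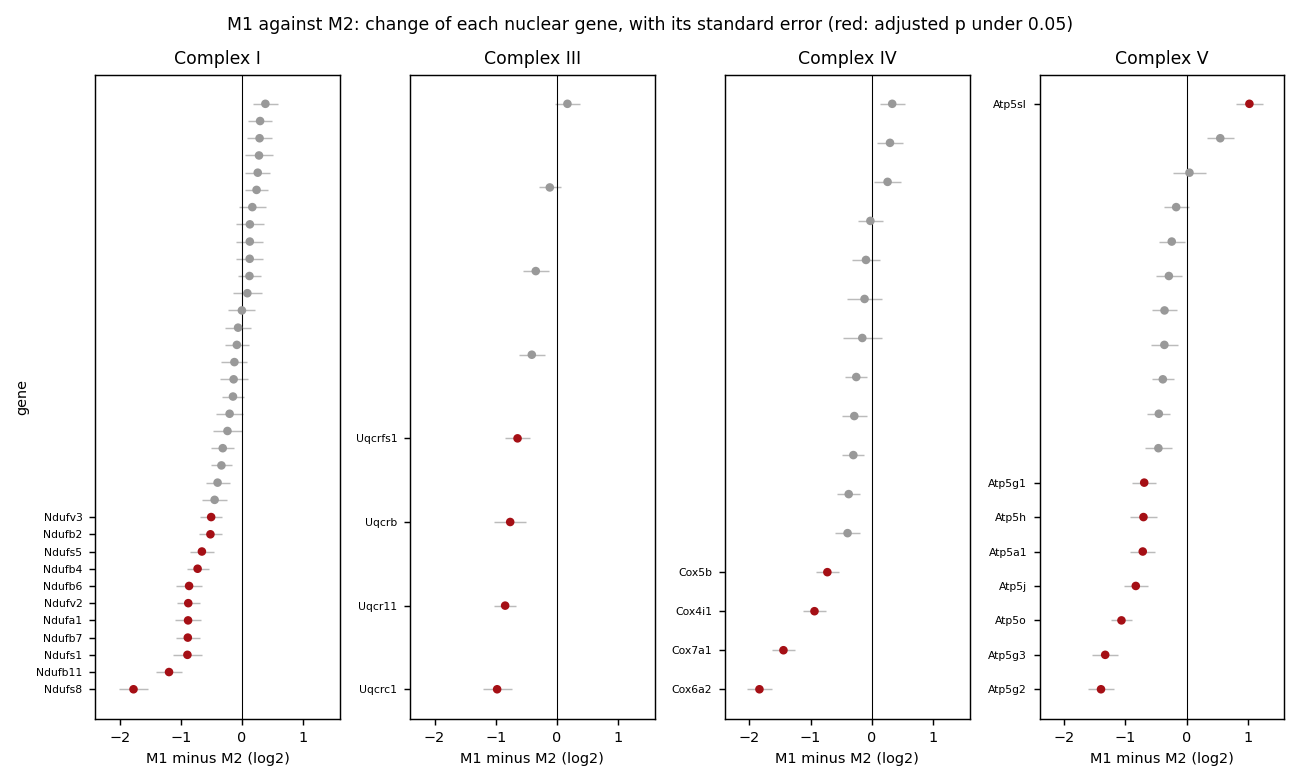
Change from M2 to M1 (log2) with its standard error for each of the 77 nuclear genes tested, one panel per complex; red points passed an adjusted p of 0.05 in limma and are named. Of the 27 red points, 26 lie to the left of 0, and Atp5sl is the one to the right.

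Each polarized culture was also compared with unpolarized cells, to see which of the 2 had moved; both comparisons share the naive M0 arrays. Cell type markers moved too, and their part was not tested. Of 10 neutrophil markers 7 fell and 1 rose in M1, while 5 fell and none rose in M2. Of 9 macrophage markers 4 fell and 1 rose in M1, while 4 fell and none rose in M2. In M1 against M2, 5 macrophage markers rose and 2 fell. In M1, 11 of 77 members fell and 6 rose, where 15.8% and 14.3% of all genes did. The split depends on single arrays: 9 fell and 9 rose without naive M0 replicate 1, 16 fell and 3 rose without naive replicate 3, and 10 fell and 2 rose without naive replicate 2 or M1 replicate 4. Without M1 replicate 1 or 3, 10 fell and 3 rose. Quantile normalization gave 22 and 16. Atp5g2 fell by 1.69 ± 0.21 (limma, adjusted p = 9.92e-06), from naive M0 levels of 7.31 to 8.30, with no overlap. Cox6a2, Ndufb11, Ndufs8, Ndufb4, Cox7a1, Cox7a2l and Ndufb7 fell by 0.76 to 1.32, Cox4i1 and Atp5g3 by 0.71 each and Uqcr11 by 0.54. Those that rose were Atp5d, a subunit of the central stalk, at 0.90 ± 0.22, the complex I subunits Ndufa10, Ndufc1 and Ndufa11 at 0.72, 0.69 and 0.58, Cox6a1 at 0.70 and Uqcr10 of complex III at 0.61. The median of -0.12 was close to the -0.10 of all genes, and within the slides it was -0.16, 0.15 and -0.53.

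Of the genes with the exact NRF1 run shown above, Atp5g2 fell in M1 against naive M0 while Cox6a1 and Ndufa11 rose. Atp5k and Uqcrc1 did not pass in that comparison, at -0.08 and -0.15. Ndufb4, whose window holds 3 matches with a free base, fell by 0.94.

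In M2, 3 of 77 members rose against naive M0 and none fell, where 5.09% of all genes rose and 7.73% fell. Without naive M0 replicate 3, 1 rose and 2 fell, and under quantile normalization 22 rose and 4 fell, so the absence of falls depends on that array and on scaling. The 3 that rose in the main fit were Uqcrc1 at 0.83 ± 0.24, Atp5o at 0.75 ± 0.17 and Cox5a, a matrix-side subunit of complex IV, at 0.67 ± 0.19 (adjusted p = 0.0297, 0.00842 and 0.0288 in limma). In the 77 tests 24 members had an unadjusted p under 0.05, 22 of them higher. Among the 2 lower, Cox7a2l measured -0.49 and Atp5sl -0.59, and next to them came Ndufb3 at -0.44. The median was 0.23 against -0.08 for all genes, and within the slides it was 0.28, 0.38 and -0.09. Without naive M0 replicate 1 the count was 11, and it was 1 without naive M0 replicate 2 or without M2 replicate 1, 3 or 4. Naive M0 replicate 1 had the highest member median of its group, at 0.22.

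The 13 chain genes encoded in mitochondrial DNA had their own list of values. In M1 against M2, 10 of 13 fell and none rose, where 16.4% of all genes fell and 17.4% rose. The median was -1.83. ND1, a membrane subunit of complex I, had levels of 1.97, 2.21, 1.96 and 2.33 in M1 and 5.43, 4.77, 6.10 and 5.90 in M2. The change was -3.43 ± 0.46 (limma, adjusted p = 2.33e-05). ATP6, ND3, ATP8, ND2 and ND4L fell by 3.04, 2.97, 2.93, 2.44 and 2.23, ND5, CYTB, ND4 and COX3 by 1.29 to 1.83. The 3 that did not pass were COX1, COX2 and ND6. COX1 had levels of 9.36 to 9.69 in M1 and 9.68 to 10.14 in M2. Within the slides the median of the 13 was -1.80, -2.16 and -1.98.

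Against naive M0, 9 of the 13 fell in M1, where 15.8% of all genes did, with a median of -0.97. In M2, 6 rose, where 5.09% of all genes did, with a median of 0.85. The 6 became 3 without naive M0 replicate 1 or 2 or without M2 replicate 3 or 4. ND3 measured -2.43 ± 0.22 in M1, and ND1 measured 2.09 ± 0.46 and ND5 1.74 ± 0.34 in M2 (limma, adjusted p = 2.98e-07, 0.00651 and 0.00236). The probes of 7 of these genes are annotated to the mitochondrial chromosome (mm9). Those of ATP6, ATP8, COX2, COX3, ND3 and ND4L are annotated to a stretch of chromosome 1 near-identical to mitochondrial DNA, and their signal may include transcripts of that copy. ND1 and ND2 are among the 7.

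**Figure D3:**
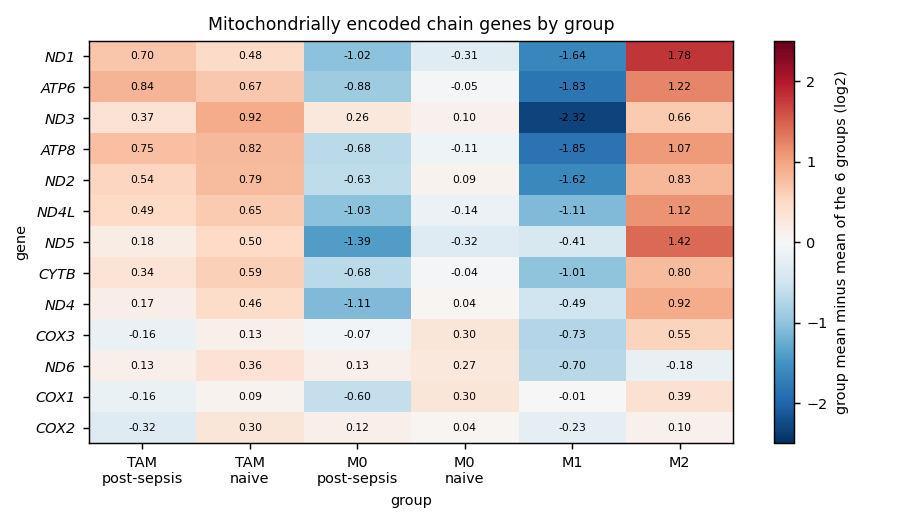
Mean level of each mitochondrially encoded chain gene in each group, minus the mean of the 6 groups (log2), with the genes ordered by M1 minus M2. ND1 spans -1.64 in M1 to 1.78 in M2, while COX2 stays between -0.32 and 0.30.

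Assembly factors and regulators were counted from lists apart from the members. In M1 against M2, 9 of 19 assembly factors of complex IV tested rose and none fell, with a median of 0.69. Cox18, Cox11, which carries copper, and Cox14 measured 1.55 ± 0.26, 1.36 ± 0.20 and 1.13 ± 0.19. Of 14 assembly factors of complex I, 5 rose and 1 fell, with Ecsit at 1.08. Of 4 for complex III, 3 rose, led by Ttc19 at 1.90. Atpaf2, a chaperone of the ATP synthase head, measured 2.22 ± 0.19. Of 12 genes that make coenzyme Q, the carrier between complexes I or II and III, 5 rose and none fell, with a median of 0.59. Among 11 other nuclear chain genes 2 rose and 4 fell. Of all genes tested 17.4% rose and 16.4% fell in this comparison, and 2 of the complex IV assembly factors fell under quantile normalization.

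Of the 4 subunits of complex II, Sdhd, a membrane anchor, rose by 1.28 ± 0.20 against naive M0 and by 0.86 against M2, and Sdha, Sdhb and Sdhc did not pass in either. Cytochrome c itself, Cycs, and Cyc1, the nuclear-encoded cytochrome of complex III, rose by 0.92 and 1.28 in M1 against naive M0. Atpif1, the inhibitor of the ATP synthase, changed by -1.71 ± 0.20 there. Of 10 genes of the oxygen response tested, 9 rose in M1 against naive M0 and against M2, where 14.3% and 17.4% of all genes rose. Egln3, a prolyl hydroxylase, and Bnip3, a mitophagy receptor, were at 5.39 ± 0.30 and 4.42 ± 0.22 against naive M0, and Higd1a, which binds complex IV, at 2.97 ± 0.19. Hif1a, the factor at the head of that response, measured 2.06 ± 0.33.

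In M1 against M2, 6 of 18 regulators of mitochondrial biogenesis rose and 3 fell, and of 10 genes of uncoupling and oxidant defence 3 rose and 3 fell. Of all genes tested 17.4% rose and 16.4% fell there. Ppargc1b, a coactivator of respiratory genes, had levels of 0.12, 0.18, 0.35 and 0.26 on the M2 arrays and -1.76 to -1.48 on the naive M0 arrays. All M2 arrays lay above, with a change of 1.83 ± 0.17 (limma, adjusted p = 1.66e-06). In M1 it measured 0.28 against naive M0 and did not pass. Tfam, which packages and transcribes mitochondrial DNA, measured 0.03 in M1 and 0.08 in M2 and did not pass. Esrra, an orphan receptor that acts with such coactivators, rose in M1 against naive M0 by 0.91 ± 0.19. In the list of uncoupling and oxidant defence, Sod2, the superoxide dismutase of the matrix, was at 3.03 ± 0.21 in M1. Ucp2, a carrier of the inner membrane, fell in M1 by 2.05 and rose in M2 by 1.29.

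M0 macrophages from post-sepsis marrow were compared with those from naive marrow, to see whether earlier sepsis marks cells differentiated afterwards. Of 77 members, 9 rose and 2 fell, where 6.46% and 5.85% of all genes did. The median was 0.29, against 0.04 for all genes, and within the 2 slides that held both groups it was 0.33 and 0.07. Without naive M0 replicate 1 the count was 20. It was 6 without post-sepsis replicate 2 or naive replicate 2 and 7 without naive replicate 3 or 4. Fitted on these 8 arrays alone, 3 members rose and none fell.

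Cox6a2 led the rise. Its levels were 2.63, 3.15, 2.38 and 2.75 in post-sepsis M0 and 1.06, 0.50, 0.15 and 0.43 in naive M0. Every post-sepsis array lay above every naive array, with a change of 2.19 ± 0.21 (limma, adjusted p = 4.39e-06), and within the slides it was 2.21 and 1.89. Cox7a1 followed, with levels of 2.00, 2.41, 2.42 and 2.49 against 1.26, 0.68, 0.55 and 0.84, without overlap. Its change was 1.50 ± 0.19 (adjusted p = 5.66e-05, limma), and 1.52 and 1.19 within the slides. Cox6a1 and Cox7a2, the widely expressed forms, measured 0.39 and 0.31 and did not pass. None of the 6 muscle and heart markers tested passed, and their summed level was 0.467 to 2.06 in post-sepsis M0 and 0.463 to 0.702 in naive M0; the part of such cells in the result was not tested. The summed macrophage markers were 587 to 1040 in post-sepsis M0 and 1320 to 1620 in naive M0. Of the 9 macrophage markers 6 fell, with a median of -1.27, and of 10 neutrophil markers 6 fell and 1 rose, with a median of -1.52; their part in the changes of the members was not tested.

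The other genes that rose were Uqcrq, a small subunit of complex III, by 1.06 ± 0.18, Uqcrc1 by 0.84, Ndufs8 by 0.81, Atp5o by 0.80, Atp5g1 by 0.74 and Ndufv3 and Ndufa11 by 0.64 each. The dimmer probes of Ndufv3 gave 0.36 and -0.28. Uqcrq had levels of 7.03 to 7.69 in post-sepsis M0 and 6.17 to 6.76 in naive M0, whereas the arrays of Uqcrc1 and Ndufs8 overlapped. The second probe of Atp5g1 gave -0.86, so its direction depends on the probe. Ndufa6, an accessory subunit of complex I, fell, with levels of 3.57, 4.37, 3.40 and 4.18 against 5.26, 4.78, 4.64 and 4.99. The groups did not overlap, and the change was -1.04 ± 0.22 (limma, adjusted p = 0.00443). Cox7a2l fell by 0.84 ± 0.18, from 7.36 to 8.11 down to 6.72 to 7.24.

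Among the 13 mitochondrially encoded genes 1 fell in post-sepsis M0, where 5.85% of all genes did. It was COX1, by 0.90 ± 0.22, and the median of the 13 was -0.72. Within the slides the median was -1.04 and -0.20, and without post-sepsis replicate 3 it was -0.36. The count was 3 without post-sepsis replicate 2 or 4 and 2 without naive replicate 1. Post-sepsis replicate 3 stood lowest, with a median gene-centred level of -1.37 against -0.47 to -0.12 for the others of its group. Of the 10 oxygen response genes, 4 rose, where 6.46% of all genes did. Among them Egln3 was at 3.18 ± 0.30 and Higd1a at 1.30 ± 0.19. Pdk1, a kinase that limits the use of pyruvate within the mitochondrion, was at 1.91 ± 0.26. Surf1, an assembly factor of complex IV, fell by 1.12, and Cmc2 and Taco1 of the same list rose by 1.46 and 0.76. The subunits of complex II measured -0.29 to 0.17 and did not pass.

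TAM of post-sepsis and naive mice were compared on 7 arrays. No member passed, as no gene of 24407 did (0%) in limma without a block, although 9558 genes and 7 members had an unadjusted p under 0.05. Of 78 members, 76 measured higher in post-sepsis TAM, the exceptions being Cox4i2 at -0.38 and Cox6b2 at -0.53, with a median of 0.36 against 0.12 for all genes. The median was 0.17 under quantile normalization. Within slides 1, 2 and 3 it was 0.41, -0.09 and 0.63, and 73, 31 and 74 of 78 members were higher, so the direction did not hold on slide 2. Slides 2 and 3 each held 1 array of each group. On slide 2 all genes also had a median of -0.09.

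With the slide as a block, 33.8% of all genes passed (11% higher and 22.8% lower), and 6 members rose. They were Ndufa10, by 1.37 ± 0.30, Ndufs8, by 1.21 ± 0.28, Atp5c1-ps, Ndufa11, Ndufs1 and Ndufb8, with adjusted p from 0.0169 to 0.0462 in limma. Ndufa10 had levels of 3.21, 2.13, 3.27 and 3.33 in post-sepsis TAM and 1.12, 1.16 and 2.54 in naive TAM, and the groups overlapped. It was higher within every slide, by 2.11, 0.73 and 1.00. Ndufs1 had levels of 5.27, 5.01, 5.16 and 5.16 against 4.07, 4.40 and 4.82, without overlap, and was higher by 0.82, 0.34 and 0.94 within the slides. Of all 78 members, 6 lay above without overlap and 1 below, where 13.3% and 11.4% of all genes did. Without post-sepsis replicate 2, 7884 genes and 4 members passed in the fit without a block.

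The mitochondrially encoded genes had a median of -0.25 in the same comparison, and none passed. Cyc1 measured 1.02 ± 0.33 and Hif1a 0.98 ± 0.32, with an adjusted p of 0.107 in limma for both. The TAM groups also differed in other cells: the sum of 8 B cell markers was 1.12 to 5.89 in post-sepsis TAM and 9.99 to 47.2 in naive TAM, and that of 10 neutrophil markers 197 to 633 and 558 to 1090. Csf3r, the receptor for G-CSF, made up 60.3% to 97.2% of the neutrophil sum in TAM. The median change of the 9 macrophage markers was 0.30, and their sum without Itgam was 11.5 to 41.9 in post-sepsis TAM and 21.1 to 52.2 in naive TAM. The median change was -1.29 for T and NK cell markers, -1.55 for dendritic cell, -0.97 for erythroid, 0.37 for fibroblast, 0.01 for endothelial, 0.58 for keratinocyte and 0.40 for melanocyte and melanoma markers, and no marker passed. The part of these cells in the changes was not tested.

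**Figure D4:**
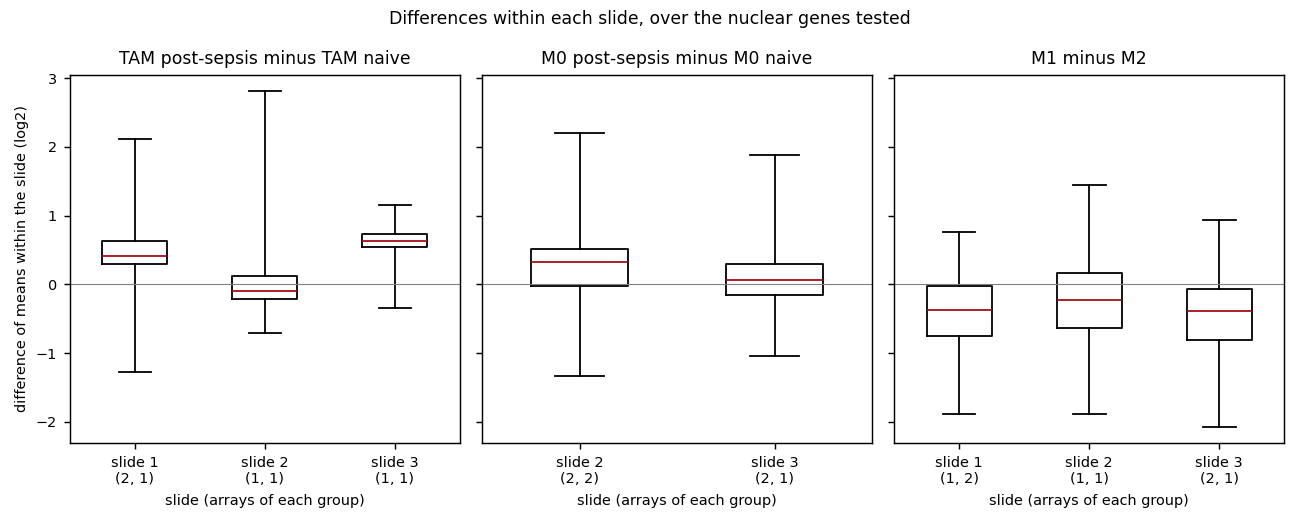
Differences within each slide over the nuclear genes tested (78 for TAM, 77 for the cultures); boxes span the quartiles, red lines are medians, whiskers reach the lowest and highest gene, and brackets give the arrays of each group on the slide. The TAM medians are 0.41, -0.09 and 0.63, while those of M1 minus M2 are -0.37, -0.22 and -0.39.

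The effect of sepsis in TAM was set against that in M0 as an interaction. Of 78 members 1 was higher and 1 lower, where 4.27% and 2.38% of all genes were, and normexp gave 3 higher and 1 lower. Cox6a2 differed by -2.19 ± 0.32 (limma, adjusted p = 0.00035): it rose in M0 and measured 0 in TAM, where it was at -2.64 to -1.82 after sepsis and -2.35 to -2.07 in naive mice. Ndufa6 differed by 1.55 ± 0.34 (limma, adjusted p = 0.00935), at 0.51 in TAM and -1.04 in M0. Cox7a1, Cox7a2l, Ndufc2 and Uqcrq had the next smallest p in either direction and did not pass, at -1.19, 0.86, 0.96 and -0.60. The count of 2 became 5 without post-sepsis TAM replicate 2 or naive TAM replicate 4, and 4 without post-sepsis M0 replicate 2 or 4 or naive M0 replicate 3.

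Naive TAM and naive M0 differ in origin and culture as well as in cell content. Of 78 members 15 were higher in TAM and 11 lower, where 16.1% and 23.1% of all genes were, and the median was 0.05. It was 0.29 under quantile normalization, with 34 higher and 8 lower, while slides 1 to 3 taken singly gave 0.13, 0.61 and -0.71, so the split of members by direction depends on scaling and slide. It also turned on single arrays: 8 were higher and 16 lower without naive TAM replicate 4, 11 and 15 without naive M0 replicate 3, 18 and 5 without naive TAM replicate 1, and 18 and 6 without naive M0 replicate 1. With TAM naive replicate 2 included, 1 was higher and 17 lower. By complex, 5 of 35 genes of complex I were higher and 8 lower, 3 of 8 of complex III were higher, and 4 of 18 of complex V were higher and 1 lower.

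Ndufa4l2, a homologue of Ndufa4 known to be induced by low oxygen, had the largest fitted difference among the members. It had levels of 0.88, 3.17 and 0.69 in naive TAM and was well above background on no array of the naive M0 group. It was at least 57.6-fold higher in naive TAM. It entered the test through TAM alone and had to differ there, so no p is given for it, although it is among the 15. In post-sepsis TAM it had levels of 1.25, 0.74, 3.50 and 2.55. Ndufa4, a subunit of complex IV despite its name, was higher by 1.50 ± 0.23, with 6.09 to 6.48 against 4.28 to 5.30. Atp5o, Ndufa9, Uqcr10, Uqcrc1, Ndufa5 and Atp5g3 were higher by 0.90 to 1.26.

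Cox6a2 was lower in naive TAM by 2.70 ± 0.24 (adjusted p = 7.72e-09, limma), and Cox7a2l by 1.51, Ndufa6 by 1.28, Atp5sl by 1.10 and Ndufs8 by 0.95. The arrays of Ndufs8 overlapped. Of 19 complex IV assembly factors 7 were lower and none higher, with Coa4 at -3.39 ± 0.27 and Surf1 at -2.02 ± 0.25. Ppargc1a, a coactivator of mitochondrial biogenesis, had levels of 3.83 to 4.22 in naive TAM and -5.62 to -3.54 in naive M0, where only 2 of 4 arrays were above background, so the fitted 8.42 is of uncertain size. Markers of other cells differed between the same groups. All 7 melanocyte and melanoma markers were higher in naive TAM, as were all 7 fibroblast markers (median 8.13) and all 4 erythroid markers tested (9.27). So were 8 of 10 T and NK cell, 4 of 7 B cell and 4 of 6 dendritic cell markers. Tyrp1, Dct, Lum, Pdgfra, Pdgfrb, Alas2, Cd209a and Clec9a were above background on no naive M0 array. They entered the test through TAM alone and had to lie higher there, so these counts include them by design. The medians are of uncertain size. Their part in these differences was not tested.

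Isoforms of complex IV subunits differed in their levels over the 6 groups. Cox6a2 was at 2.73 ± 0.32 (SD, n = 4) in post-sepsis M0, 1.05 ± 0.18 in M2, 0.54 ± 0.38 in naive M0, -0.78 ± 0.07 in M1, -2.17 ± 0.40 in post-sepsis TAM and -2.17 ± 0.16 (n = 3) in naive TAM. The TAM groups did not differ beyond their spread, and M2 and naive M0 overlapped by array. Cox7a1 was also highest in post-sepsis M0, at 2.33, followed by M2 at 1.35, and lowest in M1, at -0.09 ± 0.15. Cox4i2, the form of subunit IV known from lung and low oxygen, was at 0.45 to 0.87 in all groups and changed in no comparison. Cox6b2, known from testis, and Cox8a, the common form of subunit VIII, also passed in none. The probe of Cox6a2 lies on chromosome 7 at 135349160 to 135349219 and that of Ndufa4l2 on chromosome 10 at 126954149 to 126954208 (mm9, per the file).

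**Figure D5:**
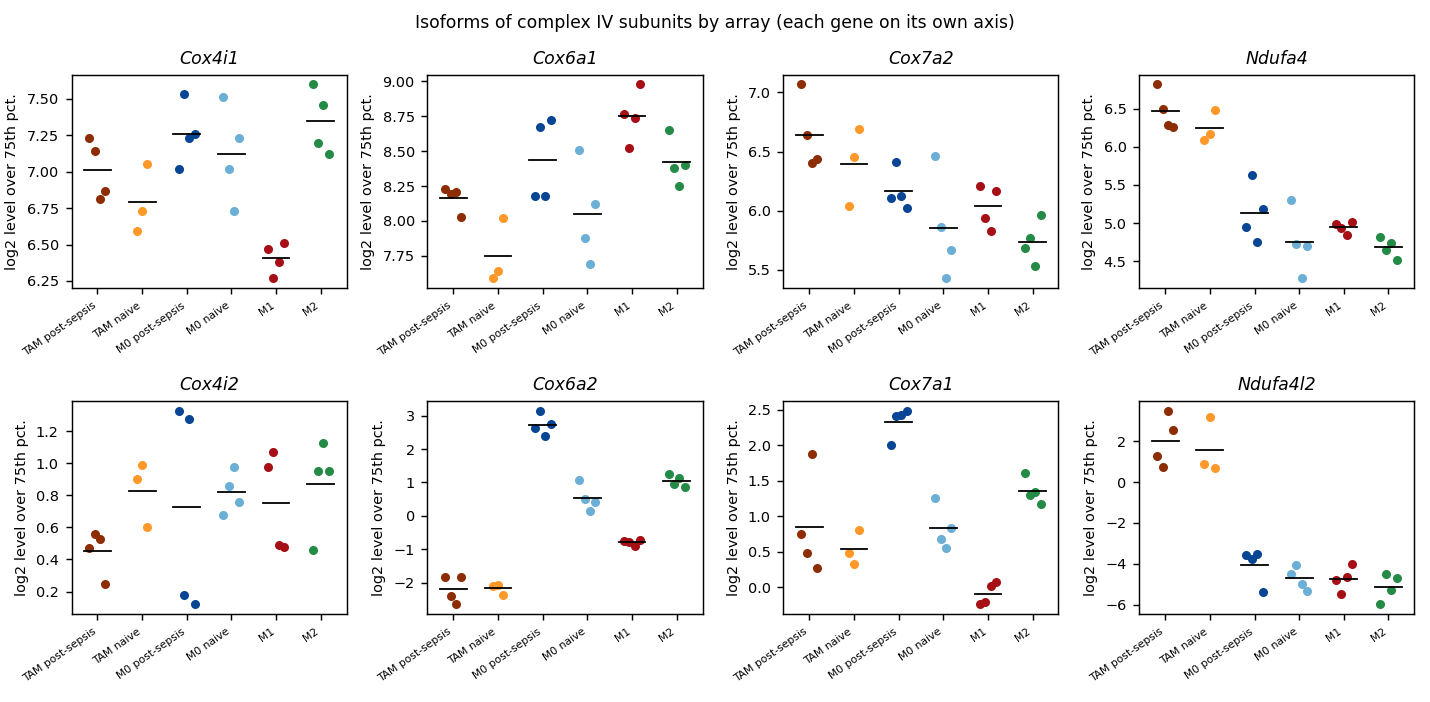
Levels (log2 relative to the 75th percentile of the array) of 8 complex IV genes on each array, with group means as bars; each gene has its own axis. Cox6a2 runs from -2.64 to 3.15, highest in post-sepsis M0 and lowest in TAM, and Ndufa4l2 is at 0.69 to 3.50 in TAM and at or below -3.53 in the cultures.

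Across the 23 arrays, genes whose levels followed the members' median most closely were BC056474 (r = 0.953), Adck1 (0.931), Eif3g (0.923), Cars2 (0.921) and ENSMUST00000069552 (0.919) of 26508 names that are not members. Among the members themselves Atp5f1 and Ndufb10 followed it at 0.95 and 0.92, whereas Cox4i2, Atp5sl and Cox7a2l ran against it at -0.54, -0.20 and -0.12. These are descriptions over arrays that share slide and scaling.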

How the data were processed

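RNA was labelled with Cy3 and hybridised to 24 Agilent mouse arrays of 1 colour. Per the file headers, each scanner file holds spot intensity values, background-subtracted and detrended within the array by Feature Extraction 10.7.3.1, with probe positions on mm9; the submitters' processing notes name version 12.5. The authors' deposited log2 value table was only compared with the scanner files by rank. Nothing in the headers scaled the intensity between arrays.

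Processed intensities were averaged over the spots of a probe, log2-transformed and centred on each array's 75th percentile. Each gene name was given by its probe of highest mean signal; 26 members had several probes. Genes entered a test if 3 or more arrays of one compared group were flagged above background. Differences were fitted with limma 3.58.1 in R 4.3.3 (lmFit and eBayes, Benjamini-Hochberg over all genes tested, two-sided). TAM against TAM used 7 arrays, culture comparisons 16, and the others 23. Where a group was above background on no array, the fold is a bound against the lowest signal among probes above background. The fits were first tested on simulated data.

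The members, lists and named genes (up to 8 per direction and comparison by size of change, or the 3 of smallest p where fewer than 3 were called, plus isoforms and up to 3 called genes of each further list, with some chain genes and regulators listed by name) were chosen with earlier results of these data known. The lists were complex II, mitochondrially encoded genes, assembly factors, other chain genes, coenzyme Q synthesis, biogenesis regulators, oxygen response, uncoupling and oxidant defence, and cell type markers. Alternatives were quantile normalization, normexp background (offset 50), other filters, the mean of all probes, slide or replicate as a block, other sets of arrays, and leaving out each replicate. The number of arrays limits the precision.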

Additional observations from a re-analysis of the deposited data

Results flagged for a closer look

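Within groups of 4 arrays, 6 of 135 values checked had 1 array far from the other 3, where chance flags about 1 in 20 groups. The median gene-centred level over the members in post-sepsis TAM replicate 1 was 0.58, against 0.19 to 0.24 on the other arrays of the group, and over complex I it was 0.61 against 0.18 to 0.23. Over the 4 genes of complex II, M2 replicate 2 was at 0.04, below the 0.12 of each other array. Ndufa4l2 was at -5.37 in post-sepsis M0 replicate 4, against -3.79 to -3.53, all low signals. Atp5sl was at 2.15 in M2 replicate 3, against 2.42 to 2.45, and ND3 at 7.81 in M2 replicate 4, against 7.11 to 7.19.

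The effect of sepsis differed between TAM and M0 for 2 members, by limma's test of the difference itself. It was -2.19 on the log2 scale for Cox6a2 (adjusted p = 0.00035) and 1.55 for Ndufa6 (adjusted p = 0.00935). The Cox6a2 difference stayed past the threshold under every alternative run. That of Ndufa6 was lost with TAM naive replicate 2 included, at 2.99 (adjusted p = 0.0947).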

How the results depend on the processing

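Counts of members called were 0 for TAM sepsis, 11 for M0 sepsis, 17 for M1 and 3 for M2 against naive M0, 27 for M1 against M2, 26 for TAM against M0 and 2 for the interaction. Quantile normalization gave 26 for M0 sepsis, 38 for M1, 26 for M2, 39 for M1 against M2, 42 for TAM against M0 and 6 for the interaction, and normexp gave 4 for the interaction. The 26 for M0 sepsis were 23 higher and 3 lower of 77. Of all 24580 genes, 2112 were higher and 2402 lower there, against 1589 and 1439 in the main fit. Calls over all genes thus moved with scaling too. The other counts under quantile normalization, here and above, stand without that share and are not results about the members alone. Without a filter on dim probes M0 sepsis gave 7 and M2 gave 1. Fitted on the 2 groups alone, M0 sepsis gave 3 and TAM against M0 12; all 23 arrays in one fit gave 4 for TAM sepsis. Requiring a change of at least 1 left 4, 4, 0, 8 and 8 members for M0 sepsis, M1, M2, M1 against M2 and TAM against M0. The slide block gave 6 for TAM sepsis and 6 for M2. TAM naive replicate 2 included left 1 in the interaction.

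The replicate block gave 4 members for TAM sepsis. Same-numbered samples correlated at -0.591 to 0.686 after removing group means, with both signs, so the numbers were not taken to pair the samples; every other count of members stayed within 1.5 times under that block.

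Leaving out 1 array at a time gave 0 to 4 for TAM sepsis, 6 to 20 for M0 sepsis, 12 to 19 for M1, 1 to 11 for M2, 22 to 26 for M1 against M2, 18 to 26 for TAM against M0 and 2 to 5 for the interaction. Mitochondrially encoded genes called ranged over 1 to 3 for M0 sepsis, 6 to 8 for M1, 3 to 6 for M2 and 10 to 10 for M1 against M2. For M0 sepsis their count of 1 became 4 under quantile normalization, 3 under normexp, the stricter filter, the mean of probes, the replicate block and the fit of 23 arrays, and 0 on 2 groups alone or with a change of at least 1.

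Under quantile normalization the median level over the 78 members in M2 moved from 0.10 to -0.01 and that of complex V in M1 from -0.28 to -0.17. Among values called in the main fit or the alternative, those reversed were Atp5g1 in M0 sepsis with the mean of probes, at -0.06, and Cox7b and Uqcrc1 in TAM against M0. The latter 2 reversed with TAM naive replicate 2 included, at -0.10 and -0.63. The causes were not tested, except that averaging probes brings in the second Atp5g1 probe. The counts of the further lists under quantile normalization and normexp, and the marker sums without their top marker, were added after seeing the data. Of 2822 checks of single members, 2619 kept the side of the threshold without reversal of a called value. Changes of sign in values called in neither fit were not counted as reversals.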
